A study of Homo sapiens with 3 samples.

Results

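The genes described here encode ephrins and their Eph receptors. They were chosen by symbol in a GRCh38 gene table, with earlier results of these data known. They are EFNA1, EFNA5, EFNB1, EFNB2, EPHA2, EPHA4, EPHA5, EPHB2, EPHB4 and EPHB6. These are 10 of the 20037 protein-coding genes placed on the chromosomes of the peak list, and 98 of its 106415 peaks lay in these genes or within 10 kb on either side, an extent called the locus below. The cells were of 1 immortalized line, hCMEC/D3, made from endothelium of human brain microvessels. They were grown to confluence on collagen, and the labels name no treatment and no second group. The series holds 1 ATAC-seq library, replicate 2 by its title, and 2 RNA-seq libraries whose values were not used here, because their rows are transcript identifiers that the tables at hand do not link to genes. All values below come from that 1 ATAC-seq library, have no replicate check and were compared without a test.

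Ephrins are membrane-bound ligands. Those of the A class are held by a lipid anchor and those of the B class span the membrane, and both bind Eph receptors, a family of receptor tyrosine kinases, on a touching cell. Signals run into both cells and change adhesion, repulsion and the cytoskeleton. In vessels, ephrin-B2 (EFNB2) marks arterial endothelium and its receptor EPHB4 marks venous endothelium, while in the nervous system many of the receptors guide growing axons and act at synapses.

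ATAC-seq uses a transposase to cut and tag open chromatin. The authors' list gives each peak a width, a pileup, and a fold, which sets the pileup against a local background estimated from the same library within 10000 bp. In a broad call both are means over the whole peak, so the pileup is the mean depth of extended tags and not a count or a summit height, and wide and narrow peaks are averaged over different lengths. The background has a floor set by the genome size given to the caller. The mouse size used here is smaller than the human one, which raises the floor and so lowers the fold of any peak standing at it. Both are taken as the authors deposited them and serve only to describe or rank peaks within this list. The list rests on 22188172 tags, and its peaks had a median pileup of 21.6 tags and a median fold of 4.49. It names no build. With the peaks in place, 62.5% of RefSeq start sites of protein-coding genes (GRCh38.p14) lay inside a peak, compared with 3.64% to 4.03% when every peak was moved by 2000 to 50000 bp either way. Of 10 endothelial marker genes, all 10 had a peak within 1 kb of a gene end. The same held for 5 of 5 neuronal, 4 of 5 mural, 2 of 4 astrocyte, 3 of 4 leukocyte and 3 of 4 epithelial marker genes. Together 17 of the 22 markers of other cell types had an end peak, beside 72.8% of all protein-coding genes.

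Sequences are shown first for the promoters on which the comparison of arterial, venous and neural genes turns, and for EPHA2, whose promoter holds the rarest of the motifs searched. Each is the 250 bases before a RefSeq start site, GRCh38.p14, written in the direction of transcription. Capitals mark matches on either strand to 8 motifs, and neighbouring matches may run together. The promoter elements searched were the GC box with the letters GGGCGG, the element named CCAAT for its own letters, and the TATA box with the letters TATAAA. The factor motifs searched were those of ETS proteins with CCGGAA, of AP-1 with TGANTCA, of the cAMP response element with TGACGTCA, of forkhead proteins with GTAAACA, and of the Notch effector RBPJ with GTGGGAA. The EFNB2 promoter is chr13:106535663-106535912 on the minus strand, that of EPHB4 is chr7:100827524-100827773 (minus), and that of EPHA2 is chr1:16156070-16156319 (minus). EPHA4 has an inner start, with promoter chr2:221572305-221572554 (minus), and an outer start, with promoter chr2:221574203-221574452 (minus). The promoter of the outer EPHA5 start is chr4:65670490-65670739 (minus).
EFNB2: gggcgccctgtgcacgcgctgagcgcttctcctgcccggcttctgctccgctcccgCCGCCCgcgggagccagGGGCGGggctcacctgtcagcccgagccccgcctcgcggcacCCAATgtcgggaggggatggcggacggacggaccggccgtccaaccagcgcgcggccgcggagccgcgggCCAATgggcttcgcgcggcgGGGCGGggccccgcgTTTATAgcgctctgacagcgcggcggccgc
EPHB4: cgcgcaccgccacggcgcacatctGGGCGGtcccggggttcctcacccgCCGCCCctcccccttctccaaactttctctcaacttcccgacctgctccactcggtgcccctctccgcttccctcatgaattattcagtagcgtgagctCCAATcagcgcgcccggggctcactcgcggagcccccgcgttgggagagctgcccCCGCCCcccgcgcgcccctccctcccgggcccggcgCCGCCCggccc
EPHA2: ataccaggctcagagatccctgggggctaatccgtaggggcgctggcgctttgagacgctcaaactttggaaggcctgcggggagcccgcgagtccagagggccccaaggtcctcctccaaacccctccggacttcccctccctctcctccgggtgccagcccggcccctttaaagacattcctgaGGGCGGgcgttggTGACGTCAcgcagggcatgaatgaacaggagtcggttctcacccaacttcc
EPHA4 inner start: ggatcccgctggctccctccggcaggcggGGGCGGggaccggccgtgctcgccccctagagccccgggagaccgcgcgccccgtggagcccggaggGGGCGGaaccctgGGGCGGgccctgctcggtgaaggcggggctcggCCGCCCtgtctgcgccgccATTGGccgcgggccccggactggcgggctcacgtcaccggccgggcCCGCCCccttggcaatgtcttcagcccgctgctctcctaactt
EPHA4 outer start: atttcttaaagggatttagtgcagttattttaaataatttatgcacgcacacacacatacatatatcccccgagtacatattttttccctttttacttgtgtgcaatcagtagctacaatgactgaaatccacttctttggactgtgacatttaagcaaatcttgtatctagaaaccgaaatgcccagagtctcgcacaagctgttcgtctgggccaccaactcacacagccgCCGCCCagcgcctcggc
EPHA5 outer start: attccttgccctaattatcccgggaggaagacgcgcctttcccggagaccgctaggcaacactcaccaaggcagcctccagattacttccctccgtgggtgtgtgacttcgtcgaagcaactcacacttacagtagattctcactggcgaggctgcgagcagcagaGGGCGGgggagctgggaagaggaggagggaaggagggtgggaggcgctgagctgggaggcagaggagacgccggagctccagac

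The EFNB2 promoter held 3 GC boxes, 2 CCAAT boxes and, 30 bases before the start site, a TATA box match on the reverse strand, with 78.4% G or C and 40 CpG dinucleotides. The EPHB4 promoter held 4 GC boxes and 1 CCAAT box, with 72.8% G or C and 29 CpG. Both windows lay wholly inside a peak. Over 22183 promoters of protein-coding genes, a GC box was present in 53.7%, a CCAAT box in 32.7% and a TATA box match in 9.01%, and the median was 62.0% G or C and 16 CpG. All 13 promoter windows of the 10 genes held a GC box, although 2 of these, at EPHB2, start 1 bp apart. CCAAT boxes were present in 5 of the 13 and a TATA box match in 1.

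The EPHA2 promoter held a cAMP response element 51 bases before the start site, the only one among the 13 windows. This motif was present in 2.02% of all promoters. None of the 13 windows held the ETS, AP-1, forkhead or RBPJ letters, which were present in 18.0%, 5.35%, 2.45% and 5.27% of all promoters. A match or its absence describes these letters in this window alone.

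The 2 EPHA4 starts differed in composition and in accessibility. The inner start had 78.0% G or C, 30 CpG and 5 GC boxes, and its window lay wholly inside a peak. For the outer start the values were 43.2%, 9 CpG and 1 GC box, no base of the window lay in a peak, and the nearest peak was 318 bp from the start site. At EPHA5 the outer start, with 61.2% G or C and 14 CpG, lay inside a peak. The inner start, with 75.2% and 23 CpG, lay 28 bp from one. Of a window from 250 bases before this inner start to 50 after it, 74.3% lay inside a peak.

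Every one of the 10 genes had a peak within 1 kb of its 5' end, and so of a gene end. Over all protein-coding genes, 72.8% had a peak within 1 kb of either end, and of those with a known strand 71.2% had one at the 5' end. A peak within 1 kb of the 3' end was present at 2 of the 10 genes, EFNA1 and EPHB4, compared with 17.8% of protein-coding genes, and 89.8% of protein-coding genes had a peak anywhere in the locus. At 8 of the 10 genes an annotated start site lay inside a peak, the exceptions being EPHB2 and EPHB6. Over protein-coding genes with a known start, 68.7% had a start site inside a peak. Counted by start site, 8 of the 13 lay inside a peak, which is near the 62.5% of all start sites of protein-coding genes.

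The 98 peaks fell into 15 at 5' ends, 3 at 3' ends, 64 inside the genes and 16 in the flanks. Peaks at 5' ends were the widest, with a median of 1092 bp against 418 bp inside the genes, and had a median pileup of 37.7 tags against 25.1. Their median fold was lower, at 3.23 against 4.33, beside a median local background of 10.8 tags against 3.62. The 5' end peak with the highest pileup had a median pileup of 41.1 tags over the 10 genes, compared with 46.6 over 11277 protein-coding genes with such a peak. Its median fold was 3.57 over the 10 genes and 5.07 over the 11277. Its median width was 1431 bp and 1087 bp, and its median local background 11.5 and 8.04 tags.

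**Figure D1:**
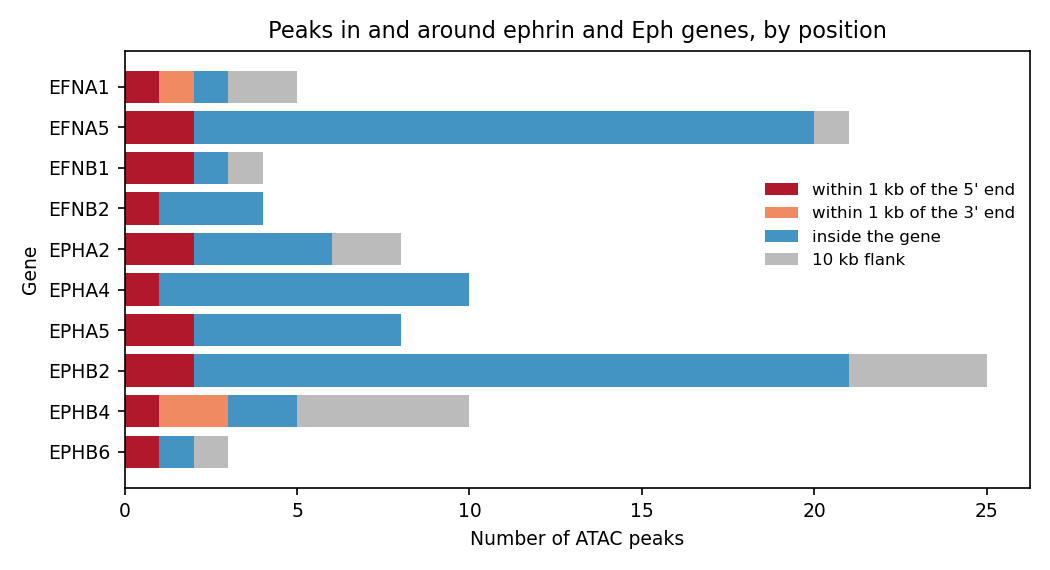
Number of ATAC peaks (horizontal axis) for each of the 10 genes, split by position: within 1 kb of the 5' end, within 1 kb of the 3' end, inside the gene, or in the 10 kb flanks. EPHB2, with 25 peaks, and EFNA5, with 21, have most of theirs inside the gene, EFNB2 has 4 and no flank peak, and EPHB4 has 5 of its 10 in the flanks.

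Peak number ran from 3 at EPHB6 to 25 at EPHB2, with a median of 8. The median protein-coding gene had 3 peaks (quartiles 2 and 6). Longer genes can hold more peaks, so each gene was also set beside protein-coding genes whose length was within 1.5-fold of its own. EPHB4, with 10 peaks, and EPHB2, with 25, stood above the upper quartiles of their length classes, 5 and 15. EPHA2, with 8, stood above an upper quartile of 5, EFNA1, with 5, above one of 4, and EFNA5, with 21, above one of 19. EFNB2 and EPHB6 were at the medians of their classes, 4 and 3, EFNB1, with 4, was at the upper quartile, and EPHA4, with 10, lay between a median of 8 and an upper quartile of 13. EPHA5, with 8 peaks, was the only one of the 10 below the median of its class, which was 11.

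**Figure D2:**
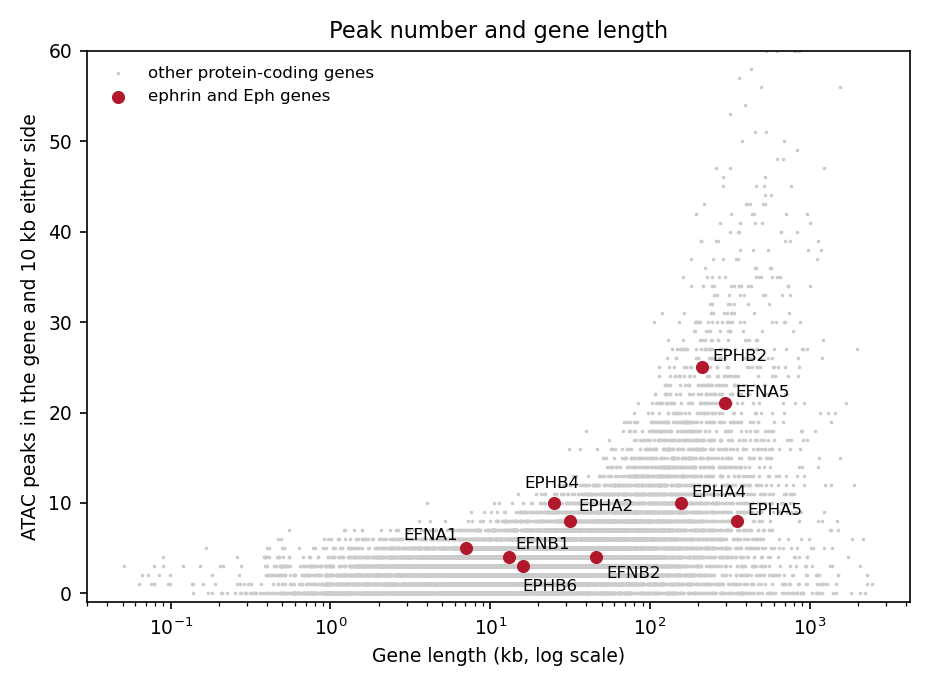
Gene length (kb, log scale) against the number of ATAC peaks in the gene and 10 kb either side, for protein-coding genes (grey) and the 10 ephrin and Eph genes (red); 4 genes with more than 60 peaks lie outside the axis. EPHB4, with 10 peaks in a gene of 24.96 kb, sits near the upper edge for its length, and EPHA5, with 8 peaks in 350.9 kb, sits low.

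Among the ligands, EFNA1 encodes ephrin-A1, a ligand of EPHA2 that inflammatory cytokines induce in endothelium. Its gene is the shortest of the 10, at 7.02 kb, and its locus had 5 peaks. The 5' end peak, on chromosome 1 from 155126707 to 155128215, was 1509 bp wide, with 37.7 tags and 2.48-fold. The peak with the highest pileup, 67.0 tags, lay beyond the 3' end and overlapped the neighbouring gene SLC50A1, and another flank peak overlapped DPM3. Without these 2 peaks at ends of other coding genes, 3 remained. The folds of the 5 peaks ran from 2.199 to 3.91, all below the median of the list.

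EFNA5 encodes ephrin-A5, known for guiding retinal axons. Its gene spans 294.0 kb, and 18 of its 21 peaks lay inside it. The peak over the start site, on chromosome 5 from 107670905 to 107673060, was the widest 5' end peak of the 10 genes at 2156 bp, but its pileup was 27.1 tags and its fold 2.49. No peak was called over the 97.7 kb that followed the 5' end peaks. Further in, a peak centred 245.1 kb from the 5' end reached 58.5 tags (fold 6.37), and one at 128.2 kb reached 56.6 tags (fold 7.06). The most enriched, at 289.6 kb, had a fold of 9.53. The start of this gene thus had less than the median pileup of 5' end peaks, and the highest signal lay deep in the gene.

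EFNB1 encodes ephrin-B1, whose loss causes a craniofacial syndrome. Its locus on chromosome X had 4 peaks, of which 3 were alike in pileup at 45.3, 47.5 and 45.2 tags, at -1.0, 0.31 and 3.20 kb from the 5' end (negative distances lie upstream). The peak over the start site, from 68828673 to 68829981, had a fold of 3.67. The fourth, at -6.20 kb, had a lower pileup, 20.0 tags, and a higher fold, 6.16, beside a local background of 2.41 tags against 12.1 to 12.3 tags for the other 3.

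EFNB2, the arterial ligand, had 4 peaks in a locus whose gene is 45.9 kb long. The start site peak, on chromosome 13 from 106535308 to 106536750, was 1443 bp wide and had a pileup of 62.6 tags, the highest 5' end pileup of the 10 genes. A pair of peaks followed within the first 3 kb of the gene, at 1.54 kb with 40.5 tags and at 2.39 kb with 44.6 tags, and a weak one of 10.3 tags lay at 12.4 kb. Neither the remainder of the gene nor either flank had a peak. All 4 folds were low, at 3.48, 2.27, 2.51 and 3.35, and the 3 peaks near the start stood over local backgrounds of 17.2 to 17.3 tags, compared with a median of 3.32 tags over all peaks. These 3 pileups were above the median of the list and their folds below it. Fold divides pileup by the local background. Without a control, the tags of the peak itself and of neighbouring peaks within the same stretch both enter this background.

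Of the receptors, EPHA2 binds ephrin-A1 and takes part in endothelial migration. It had 8 peaks, and its gene is 31.7 kb long. The widest, 2161 bp on chromosome 1 from 16145006 to 16147166, lay inside the gene and had a pileup of 69.3 tags, above the 44.6 tags of the start site peak. Pileup did not fall below 40 tags in 7 of the 8 peaks, and their folds ran from 2.22 to 6.64. The highest fold was that of a peak at -8.37 kb, within the antisense gene EPHA2-AS1. Local background reached 28.3 tags inside this gene, the highest beside any of the 98 peaks.

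EPHA4, which binds ephrins of both classes and is best known from neurons, had 10 peaks in 156.2 kb. The start site peak, on chromosome 2 from 221571878 to 221573884, had 46.5 tags and a fold of 4.01. The 9 other peaks were all inside the gene, with pileups of 8.38 to 24.6 tags. Of the 10, 8 stood at the floor of the local background, under 2.4 tags. The highest fold in the gene, 7.59, was that of a peak of 24.6 tags standing at this floor.

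EPHA5, a receptor found mainly in brain, is the longest of the 10 genes at 350.9 kb and had 8 peaks. The start site peak, on chromosome 4 from 65670205 to 65670970, had 34.8 tags. Its fold of 6.69 was the highest among the 5' end peaks of the 10 genes, and it was the narrowest of their main 5' end peaks at 766 bp. It also overlapped the antisense gene EPHA5-AS1. Inside the gene, a peak at 162.1 kb had a fold of 10.9 (38.6 tags), one at 286.6 kb a fold of 9.70 (46.3 tags) and one at 131.7 kb a fold of 8.58 (36.6 tags). The fold of 10.9 was the highest of the 98 peaks. The remaining peaks inside the gene had 15.5 to 23.5 tags.

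EPHB2, a receptor for B-class ephrins that acts at synapses and in gut epithelium, had the most peaks, 25 in a gene of 210.7 kb. Its annotated start site lay 250 bp from the nearest peak, which was 220 bp wide with 16.6 tags, and a second 5' end peak had 22.98 tags. These were low among the 10 genes, although the promoter window had 84.8% G or C and 42 CpG. Between 20 and 50 kb from the 5' end lay 9 peaks, the highest of 71.1 tags at 35.4 kb and 61.5 tags at 39.8 kb. The value of 71.1 tags was the highest pileup of the 98 peaks. The highest fold was 8.73, at 151.2 kb.

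EPHB4, the venous receptor, had 10 peaks around a gene of 24.96 kb, 22.2 per 100 kb of locus, the densest of the 10. The start site peak, on chromosome 7 from 100827007 to 100828098, had 53.1 tags and a fold of 4.08, and it also overlapped the neighbouring gene SLC12A9, so its signal cannot be assigned to 1 of the genes. At the 3' end were 2 peaks, of 62.4 and 55.2 tags, with folds of 4.75 and 4.27. The flank peaks upstream, at -1.92, -8.82 and -9.89 kb, all lay within SLC12A9, and 1 of the downstream flank peaks lay within ZAN. Inside the gene the peaks were weaker, at 29.8 and 10.3 tags.

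EPHB6, a receptor whose kinase domain is inactive, had 3 peaks, the fewest. The upstream-most end of the gene had a peak of 1419 bp, on chromosome 7 from 142853900 to 142855318, with 28.5 tags and a fold of 4.68. The start site given in the promoter table lies further inside and was 3572 bp from the nearest peak, and its window had 48.0% G or C and 3 CpG. The other 2 peaks had 12.4 and 11.8 tags. EPHB6 thus had the lowest maximum pileup of the 10 genes.

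The highest pileup of the locus was at the 5' end for 4 of the 10 genes, EFNB1, EFNB2, EPHA4 and EPHB6. Over protein-coding genes with a 5' end peak this was so for 58.7%. The highest fold was at the 5' end for 2 of the 10, EFNB2 and EPHB6, compared with 38.3% of protein-coding genes with a 5' end peak.

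The arterial and venous genes were then set side by side. EFNB2 had 4 peaks and EPHB4 had 10, which are 6.07 and 22.2 per 100 kb of locus, and the median protein-coding gene had 6.63. Peaks covered 4.17% of the EFNB2 locus and 11.0% of the EPHB4 locus. The EPHB4 values include the start site peak and flank peaks that overlapped SLC12A9 or ZAN, whereas no EFNB2 peak overlapped another gene. At the start site the order of the pileups was the opposite of the order of the folds: 62.6 tags and 3.48-fold at EFNB2, and 53.1 tags and 4.08-fold at EPHB4. The local backgrounds there were 17.3 and 12.3 tags. Among 11277 genes with a 5' end peak, the EFNB2 pileup stood at percentile 77.8 and its fold at percentile 13.2. The corresponding percentiles of EPHB4 were 61.9 and 25.8. The EFNB2 peaks were gathered in the first 13 kb downstream of the start and just before it, while those of EPHB4 lay at both ends and in both flanks. With 1 library, the error of these differences is unknown.

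**Figure D3:**
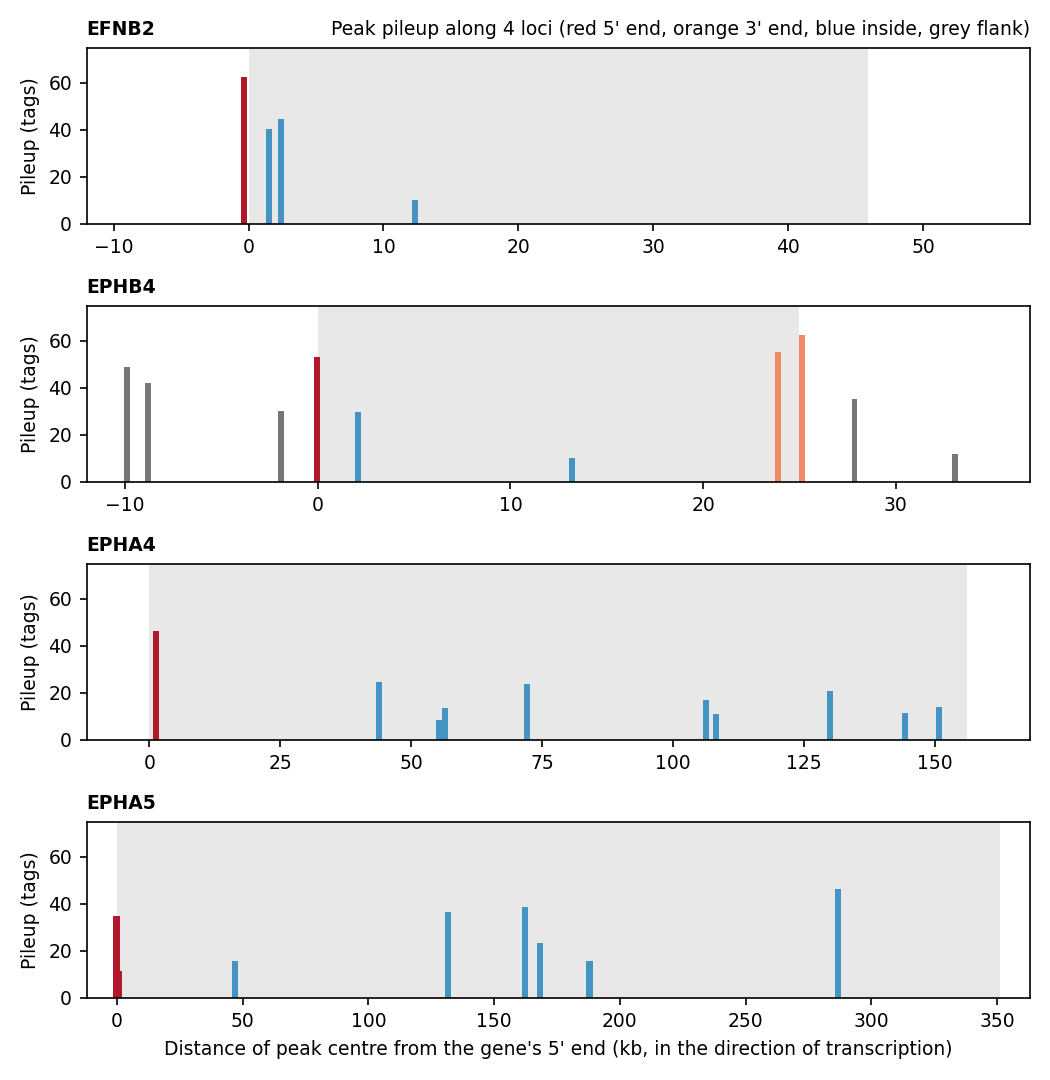
Pileup in tags (vertical axes, 0 to 75) of each peak against the distance of its centre from the gene's 5' end in kb, for EFNB2, EPHB4, EPHA4 and EPHA5; the gene is shaded, and the horizontal scales differ between panels. EFNB2 has its peaks near the start, EPHB4 at both ends and in the flanks, and EPHA4 and EPHA5 have peaks far inside the gene, up to 150.9 kb and 286.6 kb from the 5' end.

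The neural genes EPHA4 and EPHA5 had 18 peaks together over 507.1 kb of gene, at 5.68 and 2.16 per 100 kb of locus. The density at EPHA4 was near that at EFNB2, and that at EPHA5 was lower. EPHB2, which acts at synapses and in gut epithelium, was not placed in this neural set. Its density, 10.8 per 100 kb of locus, was above that at EFNB2. Their start site pileups, 46.5 and 34.8 tags, were below those of EFNB2 and EPHB4. Their start site folds ran the other way for EPHA5, where 6.69 stood at percentile 83.2 of genes with a 5' end peak, over a local background of 4.35 tags. The fold at EPHA4, 4.01, was close to that at EPHB4. The median fold of all peaks in the locus was 6.87 at EPHA5, 4.36 at EPHA4, 3.74 at EPHB4 and 2.93 at EFNB2. By median pileup both neural genes came last, with 29.2, 15.4, 38.6 and 42.6 tags in the same order. The median local backgrounds were 3.01, 2.37, 12.2 and 17.2 tags. When peaks under 4-fold were left out, 4 of the 10 genes had an end peak, EPHA4, EPHA5, EPHB4 and EPHB6, compared with 56.0% of all protein-coding genes. None of the 4 EFNB2 peaks was left. Whether pileup or fold is read therefore changes which of the arterial and neural genes has the stronger start site peak.

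**Figure D4:**
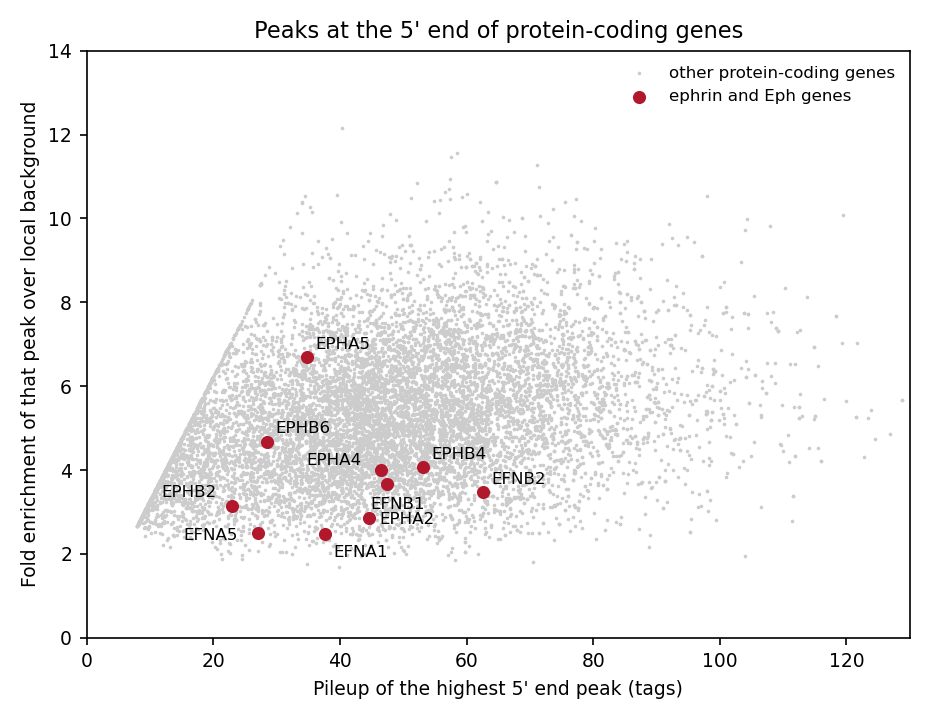
Pileup in tags against fold over local background for the highest 5' end peak of each protein-coding gene with one (grey) and of the 10 ephrin and Eph genes (red); 3 genes lie outside the axes. EFNB2 is farthest to the right of the 10, at 62.6 tags, but has a fold of 3.48, and EPHA5 is the highest, at 6.69-fold with 34.8 tags.

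The rest of the family, 12 genes, had a lower median number of peaks. Of these, 9 had an end peak, beside 72.8% of all protein-coding genes, 3 did not (EFNA2, EPHA3 and EPHA8), and EPHA3 had no peak in its locus. The median number of peaks was 2.5, compared with 8 for the 10 genes above and 3 for all protein-coding genes. Per 100 kb of locus the medians were 3.87, 9.58 and 6.63 in the same order. Because the 10 genes were chosen with earlier results of these data known, these differences cannot be separated from that choice. EPHA1, EFNA3, EFNA4 and EFNA2, at 18.6, 17.4, 15.5 and 10.8 per 100 kb, stood above 9.58, and the other genes of the 12 below it. EPHA1 had the most, 7, of which 3 lay at or in the neighbouring gene ZYX. EFNA3 followed with 5, then EFNA2 and EFNA4 with 4 each. EFNA3 and EFNA4 are neighbours and share 2 of these peaks, and both flank peaks of EFNA2 lay at ends of neighbouring genes, FAM174C or CIRBP. In the 6 further Eph genes known mainly from the nervous system (EPHA3, EPHA6, EPHA7, EPHA8, EPHA10 and EPHB1), 10 peaks were called over 2057 kb of gene. The highest pileup of these 10, 41.35 tags, was that of an EPHA6 flank peak that overlapped the neighbouring gene ARL6 at its end. The pooled density was 0.459 per 100 kb of locus, compared with 3.29 for EPHA4 and EPHA5 pooled. Pooling gives the longest genes the most weight. Gene by gene, the densities of the 6 ran from 0.0 at EPHA3 to 2.81 at EPHA10, which is above the 2.16 of EPHA5 and below the 5.68 of EPHA4. EPHB1 had a start site peak of 34.2 tags and a fold of 6.76, close to the values at EPHA5.

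Genes that act with the receptors or ligands were read in the same way. Of 16 such genes, 14 had a peak within 1 kb of a gene end, beside 72.8% of all protein-coding genes. The exceptions were NGEF, which encodes the exchange factor ephexin-1, with 7 peaks elsewhere in its locus, and RGS3, a regulator that binds B-class ephrins, with 24. Both had peaks inside the gene, 5 and 21. At RGS3, 3 of 5 annotated start sites lay inside a peak, so the lack of an end peak leaves out its inner starts. At NGEF, 0 of 2 did. ADAM10, the protease that cleaves ephrins, and the Vav exchange factors VAV2 and VAV3 were among those with an end peak. VAV3 and NCK2 had an end peak, although 0 of 1 annotated start sites lay inside a peak at each. The highest 5' end peak of VAV3 had 12.15 tags. TIAM1 was counted through the only peak of its locus, of 8.2 tags and 2.73-fold. The lowest pileup called was 8.0 tags.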

How the data were processed

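ATAC-seq was read from 1 library of hCMEC/D3. The authors called broad peaks with MACS 2.2.7.1 without a control, per the file headers, with a shift of -100 bp, an extension of 200 bp, a q of 0.05 (broad regions 0.1), single-end mode and a genome size of 1870000000 bp, the caller's mouse preset. Of 31532245 tags, 22188172 remained. Per peak, the deposited values are the pileup signal, the fold as a ratio, and the −log10 of a p-value and of a q-value. The aligner settings are not given in the sources used here. The submitters' processing notes name GRCh38 and mm10.

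Loci were gene extents of a RefSeq table (GRCh38.p14) plus 10 kb, with an overlap of at least 1 bp. All 10 symbols matched, and all have a strand in the RefSeq promoter table. Local background was approximated from the authors' mean values as (pileup + 1)/fold - 1; its floor from the header is 2.37 tags. Peak placement was tested on simulated data. Python 3.11.15 and pandas 2.3.3 were used. All 10 genes are named by rule. In the rest of the family, the genes without a peak and those with the most are named. Genes and lists were chosen with earlier results of these data known. Alternatives covered peak filters, overlap, flank and window. Where no peak was called, accessibility was not detectable at this depth.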

Additional observations from a re-analysis of the deposited data

How the results depend on the processing

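Of 83 alternative values, 67 were within 1.5-fold of the reported value and 16 were not. When the −log10 q had to reach 5, EFNB2 had 2 peaks in place of 4 and EPHB4 had 6 in place of 10. With peaks of at least 4-fold, the 10 loci held 47 peaks in place of 98, EFNB2 had 0, EPHB4 had 5, and 4 of the 10 genes had an end peak. Fewer peaks under a stricter filter follow from its construction. EPHB4 had more peaks than EFNB2 in each setting run. No setting left out every peak that overlapped a neighbouring gene. Leaving out peaks at ends of other coding genes kept 9 at EPHB4, among them those lying within SLC12A9 and ZAN. The other 10 of the 16 were peak numbers of single genes, or the number of genes with a 5' end peak. The alternatives that left out peaks at ends of other coding genes, or counted 5' ends alone, were chosen after seeing the data. The lowest pileup called was 8.0 tags, which limits what a missing peak means. No paired analysis was possible because the comparison rests on 1 library and no test.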

Other observations

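Other genes of arterial and venous endothelium were placed in the same way. Of 14 arterial genes other than EFNB2, 10 had a peak within 1 kb of a gene end, and BMX, CXCR4, GJA4 and GJA5 did not. No peak was called in the locus of CXCR4, a chemokine receptor. DLL4, a Notch ligand, had 7 peaks in its locus. Of 8 venous genes other than EPHB4, 4 had an end peak, and ACKR1, APLNR, SELP and VCAM1 did not. No peak was called in the locus of APLNR, the apelin receptor, while NR2F2, a transcription factor of venous identity, had 6. Over all protein-coding genes, 72.8% had an end peak.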
